A study of Mus musculus with 20 samples.

Results

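The genes described here are imprinted genes of the mouse, listed by symbol as Peg3, Igf2r, Grb10, Plagl1, Impact, Mest, Snrpn, Sgce and Peg10. They were chosen by name with earlier results of these data known, and Peg3 was selected on its loss in Trim33-KO cells. Of the 9 genes, 5 (Peg3, Igf2r, Impact, Mest and Sgce) are among the 13107 genes of the Myc experiment, and 2 (Igf2r and Impact) are among the 11210 genes of the HU experiment. Grb10, Plagl1, Snrpn and Peg10 were not analysed here.

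Expression was measured by RNA-seq in the p19/Nras line, liver cancer cells from a tumour that Nras induced in p19/Arf-null mice, so that every group carries the p19/Arf loss and Nras. In the Myc experiment, Trim33-WT cells (sgCtrl) and the CRISPR lines Trim33-KO1 and Trim33-KO2 (sgTrim33) carried the pWZL Ctrl vector or Myc. This gives the 6 groups WT Ctrl, KO1 Ctrl, KO2 Ctrl, WT Myc, KO1 Myc and KO2 Myc, with 2 libraries in each. In the HU experiment, Trim33-WT (sgCtrl) and Trim33-KO (sgTrim33) cells received vehicle, called untreated here, or hydroxyurea (HU), an inhibitor of ribonucleotide reductase, with 2 libraries in each of the 4 groups. The labels give neither the KO line nor the dose and time of HU, and they do not say that replicates came from separate cultures, so that p-values measure only the spread between these libraries. Total counts were 14753177 to 17949430 per library in the Myc experiment and 2315327 to 3082202 in the HU experiment.

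Imprinted genes are expressed mainly from the chromosome copy inherited from 1 parent. The choice is carried by DNA methylation set in the germ line and kept afterwards by Dnmt1, Uhrf1 and the Trim28 complex that Zfp57 and Zfp445 bring to imprinted regions. Peg3, Plagl1, Impact, Mest, Snrpn, Sgce and Peg10 are known as paternally expressed genes, and Igf2r and Grb10 as maternally expressed genes in most tissues. Many of them act in growth and nutrient supply, and loss or gain of imprinted expression is known in liver tumours. In bulk samples, fewer expressing cells and less RNA per cell cannot be told apart. The counts do not separate the parental copies.

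The labels were checked first with Trim33, the targeted gene. Levels are given as CPM, counts scaled to the library total after TMM normalization, so that libraries of unlike depth can be set side by side. Trim33 was at 246 and 258 CPM in WT Ctrl, 123 and 130 in KO1 Ctrl, with 201 and 207 in KO2 Ctrl. In WT Myc it was at 131 and 155, below the libraries labelled KO1 Myc, at 185 and 193, yet above the 124 and 125 in those labelled KO2 Myc. In the HU experiment it was 125 to 142 in the 4 WT libraries and 43.8 to 52.2 in the 4 KO libraries. Trim33 RNA in the libraries labelled KO1 Myc was thus above that in WT Myc. The paper examined the knockout by immunoblot, and Trim33 RNA was still present in every KO library. Its level therefore cannot tell whether a label is wrong. An exchange of the KO1 and KO2 labels would leave these libraries above WT Myc. Over 13107 genes, the log2 CPM profile of KO1 Ctrl, centred on the mean of the 6 groups, had a Pearson correlation of 0.525 with KO2 Myc and of -0.306 with KO1 Myc. That of KO2 Ctrl had a correlation of 0.235 with KO1 Myc and of -0.324 with KO2 Myc. These correlations are descriptions across genes of the same groups. Whether the line labels of the Myc libraries, or those of the KO Ctrl libraries, are exchanged cannot be told from the labels. The names KO1 and KO2 below are thus those of the labels. The groups were kept as labelled, and results that rest on the libraries labelled KO1 Myc or KO2 Myc are given after those of the Ctrl libraries alone.

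The labelled tissue is liver and the cell type HCC. Of 13 hepatocyte markers, 1 (Afp, the fetal serum albumin relative) is listed in the Myc experiment and 2 (Afp and Apob) in the HU experiment, so the labelled cell type could not be checked against its other defining markers. Afp was at 30.2 and 33.0 CPM in WT Ctrl, 0.798 and 0.920 in KO1 Ctrl, with 8.13 and 8.56 in KO2 Ctrl. Of 8 markers of stellate cells or fibroblasts, 7 are listed, and their summed level was 2916 to 3107 CPM in WT Ctrl, 4205 to 4245 in KO1 Ctrl, with 3240 to 3287 in KO2 Ctrl. In WT Myc it was 3172 to 3361, in the libraries labelled KO1 Myc 2910 to 2929, and in those labelled KO2 Myc 3788 to 3832. Of 6 biliary or progenitor markers, 3 are listed, with sums of 2789 to 2835 CPM in WT Ctrl, 2035 to 2109 in KO1 Ctrl, with 1806 to 1862 in KO2 Ctrl. In WT Myc their sum was 1289 to 1484, and in the KO1 Myc and KO2 Myc labelled libraries it was 1087 to 1096 and 1244 to 1346. Most of this sum is Spp1, at 1643 to 2232 CPM in the 6 Ctrl libraries. The other listed markers shifted more, with Krt19 at a mean of 405 CPM for WT Ctrl, 47.7 for KO1 Ctrl, beside 116 for KO2 Ctrl (n = 2 each, SD 13.3, 1.26 and 5.02). Sox9 had a mean of 194 CPM in WT Ctrl (SD 8.2, n = 2) and lay at 49.5 to 59.8 in the 4 KO Ctrl libraries. Krt19 and Sox9 were thus lower where Peg3 was near 0. Of the endothelial markers 0 of 5 are listed, and of the immune markers 1 of 6, Cd68, at 1.48 to 6.30 CPM in the Myc experiment. The part of these shifts in the results below was not tested.

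Peg3 encodes a large zinc finger protein that binds DNA, and lies on chromosome 7 from 6656603 to 6683132 on the minus strand in NCBIM37, the build of the files (mm9). Its RefSeq promoter window of 250 bases before to 50 bases after the start overlaps that of Usp29, a ubiquitin protease gene on the opposite strand, by 263 bases. Peg3 and Usp29 are thus read in opposite directions from 1 stretch of DNA. It is printed here because both genes were at or near 0 in the same libraries. The window is chr7:6730370-6730669 on the minus strand of GRCm38.p6, with every CG dinucleotide, the site of DNA methylation, in capitals.
Peg3 promoter: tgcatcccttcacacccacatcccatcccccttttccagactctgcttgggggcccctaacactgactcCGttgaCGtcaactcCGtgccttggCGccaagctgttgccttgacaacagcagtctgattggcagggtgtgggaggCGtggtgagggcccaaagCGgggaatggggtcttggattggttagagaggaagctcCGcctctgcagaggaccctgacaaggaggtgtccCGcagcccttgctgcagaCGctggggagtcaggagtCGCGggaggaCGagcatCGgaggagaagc

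This window holds 13 CG dinucleotides, more than 62.1% of the 32851 promoter windows of the reference, whose median is 7. The Usp29 window holds 17. The hexamer TGCCGC, bound by Zfp57 when methylated, occurs 0 times on either strand of the Peg3 window, and 11.6% of all windows hold it. The octamer GCCATNTT, a Yy1 site, also occurs 0 times, and 6.05% of all windows hold it. The Igf2r window holds 34 CG dinucleotides, and the 3 windows of Mest hold 8, 17 and 17, with TGCCGC 2 times in each of the latter, which overlap each other. Grb10 has windows with 45 and 9, Plagl1 has 1 with 26, and the 4 of Snrpn hold 2 to 7. A missing match says only that these letters are not in this window.

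Peg3 was close to 0 in both Trim33-KO lines, and not in 1 line only. It was at 59.7 and 54.0 CPM in WT Ctrl, or 845 and 790 counts. It was at 0.133 and 0 CPM in KO1 Ctrl, or 2 and 0 counts, and at 0.784 and 0.195 CPM in KO2 Ctrl, or 12 and 3 counts. The WT Ctrl libraries were 859-fold higher than KO1 Ctrl, with a 95% counting interval of 237 to 7100 that covers counting error only. This ratio rests on the 2 counts of 1 KO1 Ctrl library, and the fitted log2FC ran from -12.82 without that library to -8.656 without the other. The log2FC of KO2 Ctrl against WT Ctrl was -6.84. The 4 KO Ctrl libraries lay below both WT Ctrl libraries, and no test is given since Peg3 was chosen for this loss.

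With the Myc vector, Peg3 was at 10.6 and 18.9 CPM in WT Myc. It was at 0.640 and 0.927 CPM in the libraries labelled KO1 Myc and at 0.0593 and 0.111 in those labelled KO2 Myc, or 1 and 2 counts. The libraries labelled KO1 Myc were thus in the range near KO2 Ctrl, and those labelled KO2 Myc in the range of KO1 Ctrl.

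In WT cells, Peg3 fell with Myc. Its WT Ctrl values were part of the choice of Peg3, so that the test below is not independent of that choice. The log2FC of WT Myc against WT Ctrl was -1.93, with a standard error (SE) of 0.174 and an adjusted p of 1.64e-07 in edgeR's quasi-likelihood test. Both WT Myc libraries lay below both WT Ctrl libraries, and the value was -1.59 without WT Myc replicate 1 and -2.42 without replicate 2. Trim33 was also lower in WT Myc than in WT Ctrl (log2FC -0.82, adjusted p of 6.98e-08), and its part in the change of Peg3 was not tested.

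Usp29 shared the pattern. GENCODE vM1 annotates a short Usp29 model whose start is 230.7 kb from that of Peg3, unlike RefSeq. Usp29 had 14 and 17 counts in WT Ctrl and 3 and 7 in WT Myc, and 0 in all 8 KO libraries of the Myc experiment. Against a floor of 3 counts over the group, it was at least 10.9-fold lower in KO1 Ctrl and at least 11-fold lower in KO2 Ctrl than in WT Ctrl. It was at least 3.45-fold and 3.61-fold lower in the KO1 Myc and KO2 Myc labelled libraries than in WT Myc. Zim1, Zim3 and Zfp264, other genes of the Peg3 domain, were not analysed here.

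**Figure D1:**
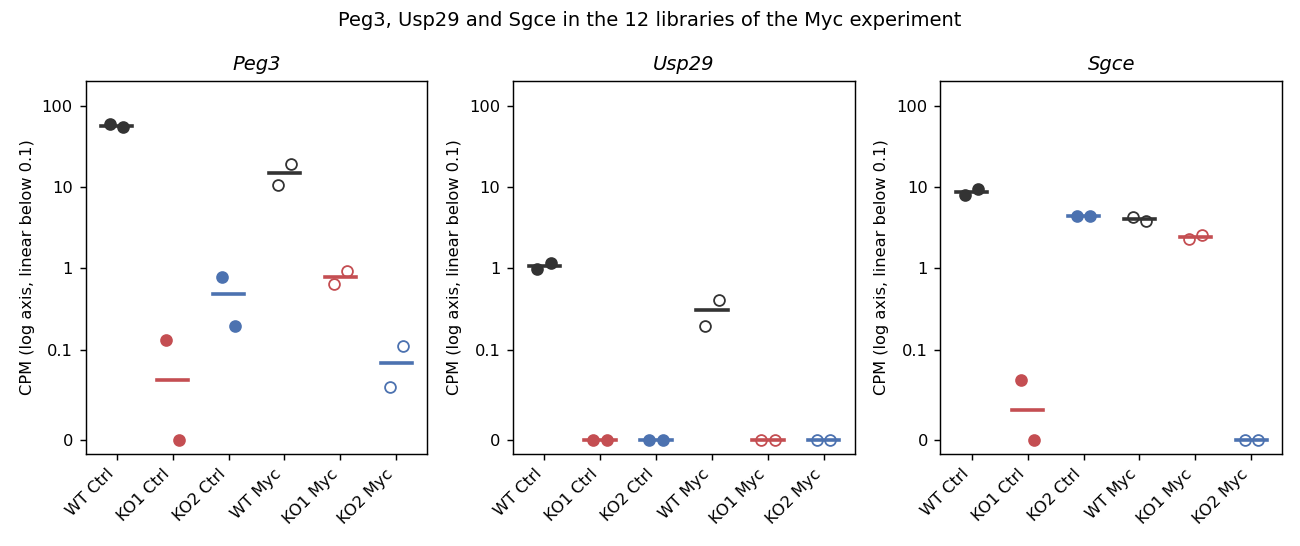
CPM of Peg3, Usp29 and Sgce (vertical, on a log axis that is linear below 0.1) in the 6 groups of the Myc experiment, with 1 point per library, filled for Ctrl and open for Myc, and a line at the group mean. Peg3 lies between 54.0 and 59.7 in WT Ctrl and at or below 0.927 in all 8 KO libraries, Usp29 is at 0 in those 8, and Sgce is at or near 0 in KO1 Ctrl and in the libraries labelled KO2 Myc.

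The 4 listed genes on each side of Peg3 were looked at after the values of Peg3 were seen, and are described with no test. Olfr1349, an olfactory receptor gene whose annotated start is 215 kb from that of Peg3, had the same pattern. It was at 3.46 and 4.24 CPM in WT Ctrl and at 0 to 0.130 CPM in the 4 KO Ctrl libraries. The ratio of WT Ctrl to KO2 Ctrl was 39.4, with a counting interval of 13.2 to 194. Olfactory receptor genes have near-identical copies, and how the authors' counting treated shared reads is not given in the sources used here. Of the genes beyond, Zfp78 was at 1.13 and 1.30 CPM in WT Ctrl and was low in KO1 Ctrl only, at 0.133 and 0.263, beside 0.715 and 0.914 in KO2 Ctrl. The nearer zinc finger genes on either side were not near 0 in the KO lines. Zfp28, on one side, was at 5.51 and 6.22 CPM in WT Ctrl, 5.59 and 7.29 in KO1 Ctrl, with 7.02 and 7.05 in KO2 Ctrl. Zfp954, on the other side, was at 8.55 and 9.16 CPM in WT Ctrl, 6.51 and 6.99 in KO1 Ctrl, with 7.32 and 7.87 in KO2 Ctrl. Zfp418 was higher in both lines, at 0.212 and 0.410 CPM in WT Ctrl and 1.11 to 1.66 in the 4 KO Ctrl libraries.

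Sgce separated the lines. It encodes epsilon-sarcoglycan, a membrane protein of the dystrophin complex, on chromosome 6 from 4624350 to 4697204 on the minus strand of NCBIM37, and its annotated start is 102 bases from that of the paternally expressed Peg10. Sgce was at 7.91 and 9.43 CPM in WT Ctrl and at 4.38 and 4.36 in KO2 Ctrl. In KO1 Ctrl it was at 0.0665 and 0 CPM, or 1 and 0 counts. The ratio of WT Ctrl to KO1 Ctrl was 263, with a counting interval of 46.7 to 10400, and that of KO2 Ctrl to KO1 Ctrl was 132, with an interval of 23.3 to 5260. These values were part of the choice of the genes and carry no test. The log2FC of Sgce in KO2 Ctrl against WT Ctrl was -0.99 (SE 0.166), which is a description, since both groups were part of that choice.

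With Myc, Sgce was at 4.29 and 3.85 CPM in WT Myc, 2.27 and 2.59 in the libraries labelled KO1 Myc, with 0 and 0 in those labelled KO2 Myc. In WT cells it fell with Myc, with a log2FC of -1.10 (SE 0.167, adjusted p of 5.26e-05). Here too, the WT Ctrl values were part of the choice, and the test is not independent of it. The libraries labelled KO2 Myc were at least 47.3-fold lower than WT Myc (adjusted p of 1.9e-08). They were at least 50.9-fold lower than KO2 Ctrl, whose values were part of the choice, so that no test is given. The libraries labelled KO1 Myc held 81 counts over the group, beside 1 in KO1 Ctrl, and no test of this pair is given since the KO1 Ctrl value was part of the choice. Their log2FC of -0.74 against WT Myc had an adjusted p of 0.0108, above the limit of 0.01. By the labels, Sgce was detected in KO1 Myc and KO2 Ctrl, and at most 1 count per library was found in KO1 Ctrl and KO2 Myc. Were the line labels of the Myc libraries exchanged, every KO1 library would hold at most 1 count of Sgce and every KO2 library would express it, so that the contrast of KO2 Myc with KO2 Ctrl depends on these labels.

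Markers of stellate cells or fibroblasts moved with this split, in both directions. Col3a1 was at 318 to 370 CPM in KO1 Ctrl and the libraries labelled KO2 Myc, and at 35.2 to 44.6 CPM in KO2 Ctrl and those labelled KO1 Myc, while WT Ctrl, where Sgce was highest, had 5.54 and 6.22. Col1a1, Acta2 and Pdgfrb were likewise higher in KO1 Ctrl and the libraries labelled KO2 Myc than in the other KO libraries. Des ran the same way as Sgce, at 2.12 and 3.08 CPM in WT Ctrl, 0 and 0.0657 in KO1 Ctrl, with 1.82 and 2.29 in KO2 Ctrl. Col1a2 had a mean of 130.4 CPM in WT Ctrl, 141 for KO1 Ctrl, beside 15.9 for KO2 Ctrl. Vim, the most abundant of the 7, was at 3410 and 3531 CPM in KO1 Ctrl and at 2731 to 3092 in WT Ctrl and KO2 Ctrl. The part of these markers in the pattern was not tested.

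The neighbours of Sgce were also chosen after its values were seen. Casd1, the nearest listed gene, 30968 bases away and also imprinted in some tissues, was at 47.6 and 50.4 CPM in WT Ctrl, 54.2 and 59.5 in KO1 Ctrl, with 37.1 and 38.4 in KO2 Ctrl. Pon3, which encodes a paraoxonase, was at 13.3 and 15.3 CPM in WT Ctrl, 14.3 and 14.7 in KO1 Ctrl, with 10.2 and 11.9 in KO2 Ctrl. Neither gene was near 0 where Sgce was. Col1a2, a collagen gene on the far side of Casd1, was at 129 and 131 CPM in WT Ctrl, 141 and 142 in KO1 Ctrl, with 14.6 and 17.2 in KO2 Ctrl. Of the other neighbours, Bet1 and Pon2 were lower in both lines. Bet1 was at 32.3 and 35.6 CPM in WT Ctrl and at 17.2 to 24.5 in the KO Ctrl libraries. Pon2 was at 59.4 and 60.6 CPM in WT Ctrl and at 25.6 to 27.2 in the KO Ctrl libraries. Samd9l and Asb4 were higher in both lines, and Slc25a13 in KO2 Ctrl overlapped WT Ctrl.

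**Figure D2:**
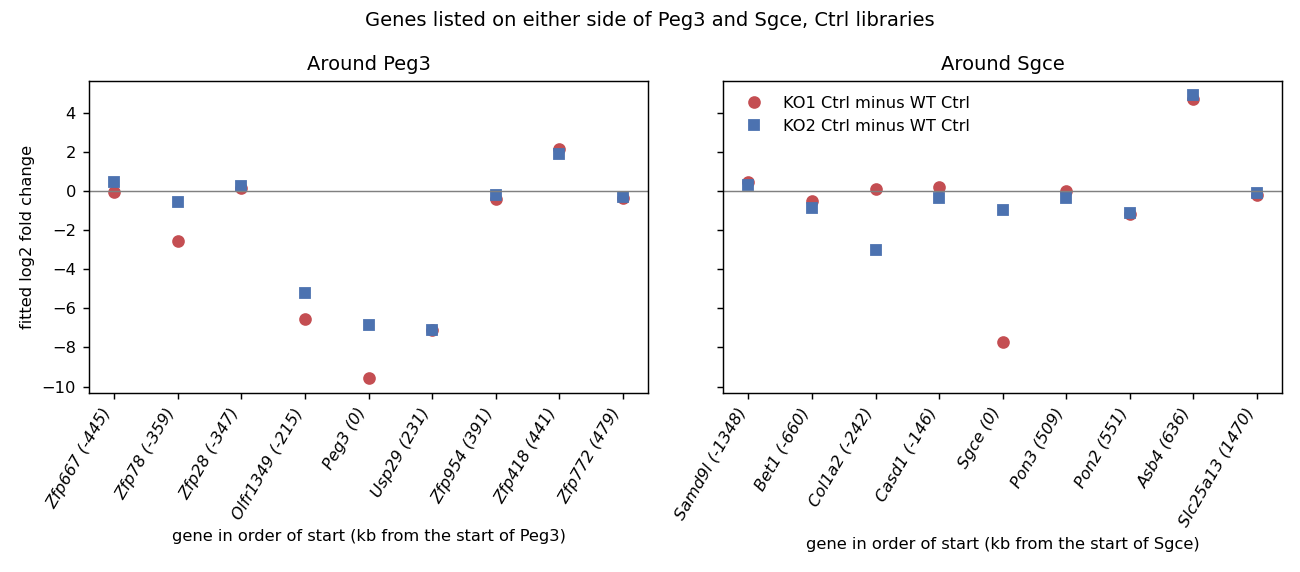
Fitted log2 fold change (vertical) of KO1 Ctrl and KO2 Ctrl against WT Ctrl for the genes listed on either side of Peg3 and of Sgce, in order of their annotated starts, with the distance in kb in brackets. Peg3, Usp29 and Olfr1349 lie below -5 in both lines, and Sgce does so in KO1 only; the fitted sizes of these 4 genes and of Asb4 depend on the prior count where a group is at or near 0, and no error is drawn.

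Igf2r, the maternally expressed receptor that clears Igf2 and carries mannose-6-phosphate enzymes, lies on chromosome 17 from 12875272 to 12962530 on the minus strand. It overlaps the antisense Airn by 28354 bases, and since the counting is not stated to use strand, reads of the overlap cannot be told apart. Igf2r was at 184 and 181 CPM in WT Ctrl, 133 and 139 in KO1 Ctrl, with 137 and 148 in KO2 Ctrl. All 4 KO Ctrl libraries lay below both WT Ctrl libraries. The choice of the genes used the Ctrl groups, so that tests of Igf2r with their values are not independent of it. In KO2 Ctrl the log2FC was -0.36 (SE 0.0932, adjusted p of 0.00346), and the adjusted p rose to 0.0267, 0.0199 and 0.0469 without WT Ctrl replicate 1, WT Ctrl replicate 2 or KO2 Ctrl replicate 1.

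With Myc, Igf2r was at 133 and 166 CPM in WT Myc, 126 and 147 in the libraries labelled KO1 Myc, with 159 and 142 in those labelled KO2 Myc, and these groups overlap. In WT cells its log2FC with Myc was -0.29 (SE 0.0928), with an adjusted p of 0.0152 that did not pass. Without WT Myc replicate 2, the higher of the WT Myc libraries, it was -0.46, with an adjusted p of 3.28e-05.

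Impact encodes an inhibitor of the kinase Gcn2, which it keeps from its activator Gcn1, and so bears on the response to amino acid shortage. It lies on chromosome 18 from 13130761 to 13151457 on the plus strand. Unlike Peg3 and Sgce, it was lost in no library. Impact was at 57.2 and 60.2 CPM in WT Ctrl, 64.3 and 70.8 in KO1 Ctrl, with 76.5 and 70.3 in KO2 Ctrl, and both WT Ctrl libraries were the lowest of the 6. As for Igf2r, tests of Impact that use the Ctrl groups are not independent of the choice of the genes. It rose in KO2 Ctrl with a log2FC of 0.32 (SE 0.0815, adjusted p of 0.00269), and the adjusted p was 0.0326, 0.0108 and 0.0426 without WT Ctrl replicate 1, WT Ctrl replicate 2 or KO2 Ctrl replicate 1.

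In WT cells, Impact fell with Myc, from 57.2 and 60.2 CPM to 42.7 and 45.8 in WT Myc. The log2FC was -0.41 (SE 0.0845, adjusted p of 0.000693), and the adjusted p was 0.0125 without WT Ctrl replicate 2. Impact was at 74.3 and 76.0 CPM in the libraries labelled KO1 Myc, above WT Myc with a log2FC of 0.76 (SE 0.0822, adjusted p of 2.82e-06). In the libraries labelled KO2 Myc it was at 58.8 and 50.2 CPM, above WT Myc with a log2FC of 0.30 (adjusted p of 0.00784). That second difference had an adjusted p of 0.0335 without WT Myc replicate 1, 0.143 without KO2 Myc replicate 1 and 0.0452 with only these groups in the fit.

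Within the lines as labelled, Impact did not pass in KO1 with Myc, at a log2FC of 0.15 (95% interval of -0.00312 to 0.309, adjusted p of 0.125). It fell in KO2 with Myc, at -0.43 (SE 0.0808, adjusted p of 0.000338), with an adjusted p of 0.0109 without KO2 Myc replicate 2. These values rest on the line labels of the Myc libraries. The Myc effect in KO1 exceeded that in WT by a log2 difference of 0.56 (SE 0.116, adjusted p of 0.000825). For KO2 the log2 difference from WT was -0.02 (95% interval of -0.254 to 0.205, adjusted p of 0.883).

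Mest, a paternally expressed gene for a hydrolase-like membrane protein, lies on chromosome 6 from 30673547 to 30698457 on the plus strand and overlaps Copg2 on the other strand. Copg2 had group means of 30.08 to 45.04 CPM in the Myc experiment. Since the counting is not stated to use strand, reads of the overlap cannot be told apart. Mest was detected at the edge of the depth, at 0.185 to 1.496 CPM over the 12 libraries. It was at 1.02 and 1.13 CPM in WT Ctrl, 0.920 and 1.06 in KO1 Ctrl, with 0.457 and 0.781 in KO2 Ctrl. In KO2 Ctrl the log2FC of -0.79 (95% interval of -1.66 to 0.0736, adjusted p of 0.128) did not pass. That test too is not independent of the choice of the genes, which used the Ctrl groups. In the libraries labelled KO1 Myc, at 0.185 and 0.698 CPM, Mest fell against WT Myc, at 1.36 and 1.496, with a log2FC of -1.65 (SE 0.426, adjusted p of 0.00579). The adjusted p was 0.0214 without WT Myc replicate 1, 0.0808 without KO1 Myc replicate 2, 0.0235 in DESeq2 and 0.0295 with only these groups in the fit.

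**Figure D3:**
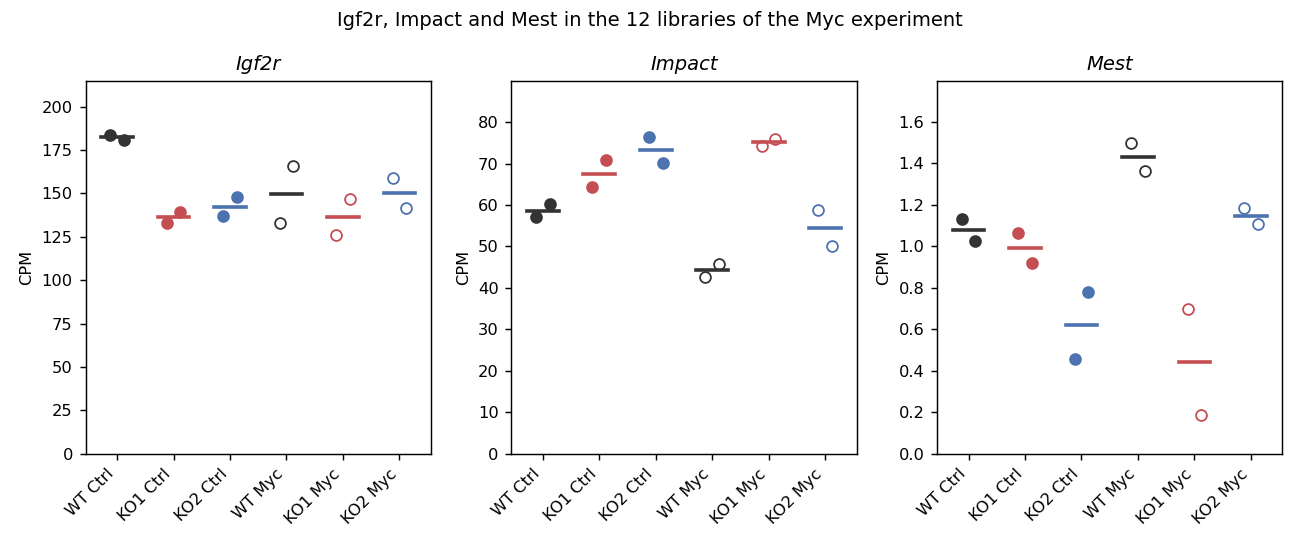
CPM of Igf2r, Impact and Mest (vertical, from 0) in the 6 groups of the Myc experiment, with 1 point per library, filled for Ctrl and open for Myc, and a line at the group mean. Igf2r is at 181 and 184 in WT Ctrl and at 126 to 166 in the other 10 libraries, Impact is lowest in WT Myc, and Mest is at or below 1.496 throughout.

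Per length, over the annotated exons of each gene, Igf2r and Impact had the highest levels of the members in WT Ctrl. They were at 19.5 and 19.2 CPM per kb and at 16.7 and 17.5 CPM per kb. Peg3 was at 4.48 and 4.06 CPM per kb, Sgce at 2.56 and 3.06, and Mest at 0.287 and 0.260. No neighbours in this order had libraries that overlap. The annotation used for counting is not given in the sources used here, so that these lengths are those of GENCODE vM1.

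Counted over the members, 3 of 5 passed in KO1 Ctrl against WT Ctrl, all lower (Peg3, Sgce and Igf2r), where 52.2% of all genes passed at an adjusted p under 0.01. The call of Igf2r was lost without WT Ctrl replicate 1 (adjusted p of 0.0103) or KO1 Ctrl replicate 1 (adjusted p of 0.0145). In KO2 Ctrl against KO1 Ctrl, 1 of 5 passed (Sgce), against 18.3% of all genes. The choice of the members used these contrasts, and nothing is read from these counts. In KO2 Ctrl against WT Ctrl, with Peg3 left out, 3 of 4 passed, 2 lower and 1 higher, where 49.9% of all genes did. Sgce is among them, and its values in both groups were part of the choice, so nothing is read from this count. In WT Myc against WT Ctrl, 3 of 5 passed, all lower, where 44.3% of all genes passed and 22.7% were lower. These include Peg3 and Sgce, whose WT Ctrl values were part of the choice, and nothing is read from this count either.

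Against WT Myc, again without Peg3, 2 of 4 passed in the libraries labelled KO1 Myc, as did 2 of 4 in those labelled KO2 Myc, where 25.1% and 35.2% of all genes did. Of Myc against Ctrl, 1 of 5 passed in KO1 (Sgce) and 2 of 5 in KO2, where 36.1% and 38.8% of all genes did. The Myc effect differed from that in WT for 2 of 4 in KO1 (Impact and Sgce) and 1 of 4 in KO2 (Sgce), where 37.3% and 32.8% of all genes differed. Nothing is read from the counts in KO1 or KO2, since the Ctrl values of Sgce were part of the choice of the genes. With so few members, these counts are not a result about imprinted genes as a group.

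Of 77 other imprinted genes, 38 are listed in the Myc experiment. In KO1 Ctrl against WT Ctrl, 10 rose and 10 fell, with a median log2FC of 0.03 beside -0.00362 over all genes. In KO2 Ctrl, 7 rose and 13 fell, with a median of -0.11 beside -0.01. The 20 calls in KO2 Ctrl became 12 without WT Ctrl replicate 2 and 13 without KO2 Ctrl replicate 2. Over all libraries, these counts are near the shares of all genes given above. Herc3, a ubiquitin ligase gene that hosts the imprinted Nap1l5, rose with a log2FC of 2.04 in KO1 (SE 0.27, adjusted p of 5.76e-06) and 2.57 in KO2 (SE 0.252, adjusted p of 2.23e-07). Dhcr7, the last enzyme of cholesterol synthesis, rose by 1.52 and 1.18 on the log2 scale, on which the values below are also given. Pon2, a paraoxonase, fell by 1.19 and 1.14, and Bcl2l1, which encodes the survival protein Bcl-xL, by 1.12 and 0.99. Peg12 rose by 0.74 and 0.87 and H13, a signal peptide peptidase, fell by 0.77 and 0.83.

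The lines differed in others of these genes. Phlda2, a maternally expressed brake on placental growth, fell by 1.77 in KO1 against WT Ctrl (adjusted p of 3.72e-06), and was higher in KO2 Ctrl than in KO1 Ctrl by a log2FC of 2.27 (SE 0.208, adjusted p of 4.19e-07). The organic cation transporter Slc22a18 rose in KO2 Ctrl, with a log2FC of 1.44 against WT Ctrl and 1.58 against KO1 Ctrl, and both calls were lost without KO2 Ctrl replicate 2 (adjusted p of 0.0144 and 0.0231) and in DESeq2. Ampd3, Casd1 and Smoc1 were lower in KO2 Ctrl than in KO1 Ctrl, by -0.98, -0.59 and -0.49. In all, 10 of the 38 differed between the lines, beside the 18.3% of all genes. Whichever of the 4 libraries was left out, fewer passed, both of these genes and of all genes.

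In WT Myc against WT Ctrl, 8 of the 38 rose and 11 fell, where 44.3% of all genes passed and 22.7% were lower. Their median log2FC was -0.00274 beside 0.00689 over all genes. Herc3 rose by 1.66, Dhcr7 by 0.74 and Phlda2 by 0.69. Ago2, a slicer of small RNA targets, fell by 1.20, and Pon3 and Pon2 by 0.76 and 0.74. Against WT Myc, 6 rose and 5 fell in the libraries labelled KO1 Myc, and 8 rose and 8 fell in those labelled KO2 Myc, near the 25.1% and 35.2% of all genes. With only these groups in the fit, the 11 and 16 calls became 6 and 10, and they were 7 without KO1 Myc replicate 2 and 10 without KO2 Myc replicate 1. Herc3 and Ago2 rose in both, with log2FC of 0.88 and 0.94 in the former and 1.23 and 0.60 in the latter, though the call of Herc3 in the former and that of Ago2 in the latter were lost without WT Myc replicate 1 (adjusted p of 0.0119 and 0.0222). Jade1 rose by 0.65 in those labelled KO2 Myc, where Bcl2l1 fell by 0.74. Gab1 fell in both, by 0.38 and 0.61, and Smoc1 and H13 fell by 0.39 and 0.39 in those labelled KO1 Myc. Phlda2 rose by 0.67 in those labelled KO1 Myc and fell by 1.26 in those labelled KO2 Myc.

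Of the 18 factors that write, read or keep imprints, 17 are listed. In KO1 Ctrl, 8 rose and 3 fell, and in KO2 Ctrl 8 rose and 1 fell, with a median log2FC of 0.28 and 0.37 beside -0.00362 and -0.01 over all genes. That is 11 and 9 of 17, beside 52.2% and 49.9% of all genes, and 7 in KO1 Ctrl without KO1 Ctrl replicate 1. Dnmt1, the maintenance methyltransferase, rose with a log2FC of 0.89 (SE 0.0658) in KO1 Ctrl and 1.10 (SE 0.0657) in KO2 Ctrl. Uhrf1, which guides Dnmt1 to copied DNA, rose by 1.42 (SE 0.0858) and 1.82 (SE 0.0854). The adjusted p of Dnmt1 and Uhrf1 were 6.46e-09 and 5.53e-10 in KO1 and 7.28e-10 and 4.1e-11 in KO2. Mbd3 of the NuRD complex rose by 0.79 and 0.51, the histone methyltransferase gene Ehmt2 by 0.41 and 0.54, and Trim28 by 0.30 and 0.44. Smchd1 rose by 0.28 and 0.35, and the insulator protein gene Ctcf by 0.29 and 0.41. Zfp445, a zinc finger protein that binds imprinted regions, fell by 0.34 and 0.28. The call of Smchd1 in KO1 Ctrl and that of Zfp445 in KO2 Ctrl were lost whichever of the 4 libraries was left out. Those of Smchd1 in KO2 Ctrl and of Zfp445 and Ctcf in KO1 Ctrl did not hold in every such fit. Dnmt1 and Uhrf1 are also known as genes of the replicating cell.

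Zfp57 differed between the lines. It was at 76.3 and 79.4 CPM in WT Ctrl, 42.8 and 43.0 in KO1 Ctrl, with 71.95 and 82.3 in KO2 Ctrl. It fell in KO1 Ctrl with a log2FC of -0.86 (SE 0.0844, adjusted p of 2.02e-07), and the log2FC in KO2 Ctrl was -0.01 (adjusted p of 0.897). KO2 Ctrl was higher than KO1 Ctrl by 0.85 (SE 0.0841, adjusted p of 1.12e-06). In the libraries labelled KO1 Myc it was at 73.2 and 85.9 CPM and in those labelled KO2 Myc at 51.3 and 52.0, as Sgce was higher in the former and lower in the latter. Whether the level of Zfp57 bears on Sgce was not tested. Zfp57 was named after its values were seen.

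In WT Myc, 5 of the 17 factors rose and 2 fell against WT Ctrl, beside 44.3% of all genes, among them Dnmt1 with a log2FC of 0.70 and Uhrf1 with 1.36. Against WT Myc, 2 rose and 0 fell in the KO1 Myc labelled libraries, while 5 rose and 1 fell in the KO2 Myc labelled ones, beside 25.1% and 35.2% of all genes. With only these groups in the fit the counts were 0 and 2. Leaving out 1 library moved the former to 4 without WT Myc replicate 2 and 1 without KO1 Myc replicate 2, and the latter to 3 without KO2 Myc replicate 1. Of 15 genes placed in a network around Plagl1, 6 are listed in the Myc experiment (Peg3, Igf2r, Mest, Sgce, Gnas and Gatm). In KO2 Ctrl against WT Ctrl, Gatm, an enzyme of creatine synthesis, fell by 0.56 (SE 0.0682, adjusted p of 2.76e-06) and Gnas, the gene of the stimulatory G protein subunit, by 0.17, a call lost whichever of the 4 libraries was left out. In WT Myc Gatm rose by 0.56, while Peg3 and Sgce fell.

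In the HU experiment, Impact rose with HU in WT cells. It was at 66.8 and 54.1 CPM in WT untreated and at 92.6 and 97.7 in WT HU, and both HU libraries lay above both untreated libraries. The log2FC was 0.66 (SE 0.164), with an adjusted p of 0.00378 and a limit of 0.05. The adjusted p was 0.128 without WT untreated replicate 2 and 0.0701 without WT HU replicate 2. In KO cells Impact was at 61.4 and 54.1 CPM untreated and at 81.3 and 79.8 with HU, again without overlap. The log2FC was 0.48 (95% interval of 0.157 to 0.811), with an adjusted p of 0.0693 that did not pass. The HU effect in KO minus that in WT was -0.17 on the log2 scale (95% interval of -0.632 to 0.286, adjusted p of 0.966), so that a difference between the genotypes was not detectable at this depth. Between KO and WT, the log2FC of Impact was -0.07 untreated (95% interval of -0.405 to 0.273, adjusted p of 0.866) and -0.24 with HU (95% interval of -0.549 to 0.071, adjusted p of 0.371).

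Igf2r was at 103 and 72.2 CPM in WT untreated, 87.0 and 78.2 in KO untreated, 106 and 104 in WT HU and 106 and 94.0 in KO HU. The WT untreated libraries spanned the KO untreated ones. With HU the log2FC was 0.27 in WT (adjusted p of 0.313) and 0.28 in KO (adjusted p of 0.35), and neither passed. Between KO and WT it was -0.08 untreated (95% interval of -0.394 to 0.227) and -0.07 with HU (95% interval of -0.365 to 0.226).

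**Figure D4:**
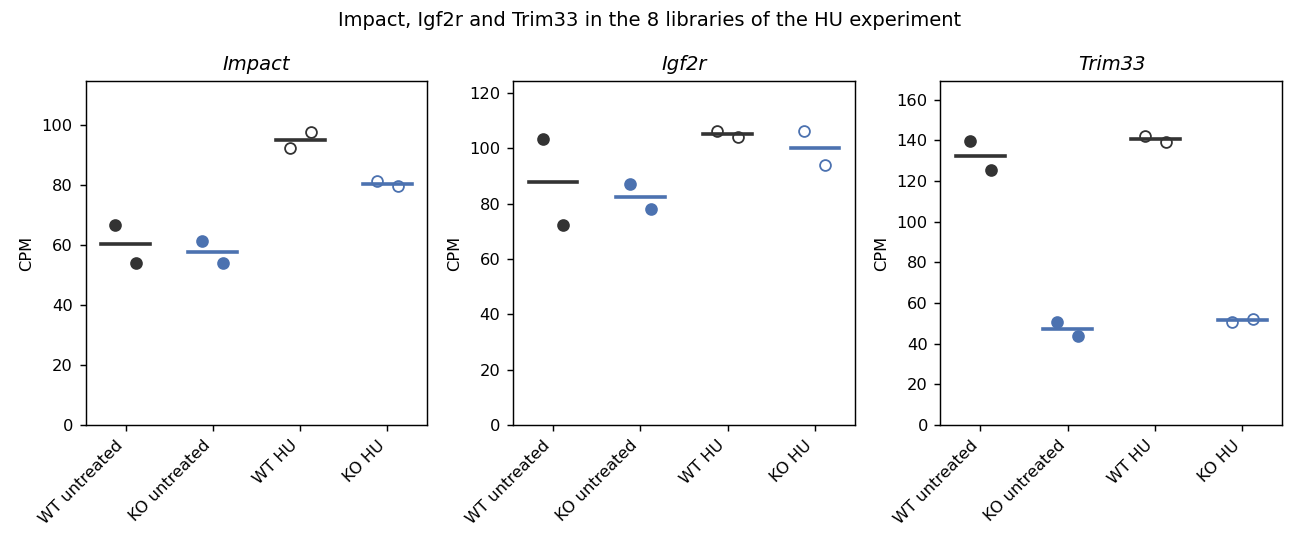
CPM (vertical, from 0) of Impact, Igf2r and Trim33 in the 4 groups of the HU experiment, with 1 point per library, filled for untreated and open for HU, and a line at the group mean. Impact lies at 54.1 to 66.8 in the 4 untreated libraries and at 79.8 to 97.7 in the 4 HU libraries, Igf2r overlaps between the groups, and Trim33 separates KO from WT.

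Over the 2 members, 1 passed for HU in WT, where 9.83% of all genes did, and 0 for HU in KO, where 6.45% did and 1 member had an unadjusted p under 0.05. Between KO and WT, 0 passed untreated and 0 with HU in edgeR and in DESeq2, where 5.58% and 6.04% of all genes passed in edgeR, and neither member had an unadjusted p under 0.05. The HU effects differed for 0 of 2, with 0 at an unadjusted p under 0.05, where 0.0714% of all genes differed. Of the other imprinted genes, 32 are listed. With HU, 5 rose in WT and 3 in KO, and 0 fell in either. The 5 in WT became 1 without WT untreated replicate 2, 2 without WT HU replicate 1, 3 without WT HU replicate 2 and 3 in DESeq2, and the 3 in KO became 1 without KO HU replicate 1. The antisense RNA Kcnq1ot1 rose by 0.99 in WT (SE 0.251, adjusted p of 0.00445) and 1.18 in KO (SE 0.258, adjusted p of 0.000929), and Blcap by 1.06 and 0.71. Ampd3 rose by 0.72 in WT and Cd81 by 0.52 in KO. Ampd3 did not pass in DESeq2 (adjusted p of 0.0948), nor whichever library was left out, and Cd81 did not pass without KO HU replicate 2. The call of Kcnq1ot1 in WT was lost without WT untreated replicate 2 (adjusted p of 0.172), and those of Kcnq1ot1 and Blcap in KO without KO HU replicate 1 (adjusted p of 0.0549 and 0.245). Kcnq1ot1 lies antisense within Kcnq1, and strand was not stated to be used.

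Between KO untreated and WT untreated, 2 of the 32 rose and 1 fell, where 5.58% of all genes passed. Bcl2l1 rose with a log2FC of 0.70 (SE 0.133, adjusted p of 0.000116), the chloride channel gene Ano1 rose by 0.75, and Pon3 fell by 1.92. The calls of Ano1 and Pon3 were lost without WT untreated replicate 2 (adjusted p of 0.0361 and 0.0421), and that of Bcl2l1 was kept whichever library was left out. With HU, 3 rose, where 6.04% of all genes passed: Sfmbt2 by 3.66, Phlda2 by 2.15 and Bcl2l1 by 0.55. Sfmbt2 held only 4 counts over WT HU and 48 over KO HU, a ratio of 13.5 with a counting interval of 4.94 to 51.6. All 3 calls were lost without WT HU replicate 1 or without WT HU replicate 2, and 1 was left without KO HU replicate 1. Bcl2l1 untreated thus had the opposite direction from KO1 Ctrl and KO2 Ctrl of the Myc experiment, a difference between experiments that was not tested. Of 15 listed factors that keep imprints, Zfp57 rose in KO, by 0.81 untreated (SE 0.218, adjusted p of 0.00768) and 0.83 with HU (SE 0.216, adjusted p of 0.00552), and Trim28 by 0.41 with HU. These calls did not hold: the count was 0 in DESeq2 and whichever library was left out, in both comparisons, and untreated also with only the compared groups, with an adjusted p of Zfp57 of 0.0141 to 0.111 untreated and 0.0236 to 0.084 with HU. Tet3 was the 1 factor that rose with HU in WT, where 9.83% of all genes passed. Gatm of the Plagl1 network rose by 1.20 in KO untreated and 0.92 in KO with HU. Of 8 markers of stellate cells or fibroblasts, 4 are listed in this experiment, with sums of 2667 to 2945 CPM in WT untreated, 3068 to 3413 in KO untreated, 2784 to 2794 in WT HU and 3421 to 3444 in KO HU. Vim makes up most of this sum and was higher in KO, at 3056 to 3433 CPM in the 4 KO libraries and 2602 to 2886 in the 4 WT libraries. The collagen genes were lower in KO, with Col3a1 at 33.9 to 46.7 CPM in the WT libraries and 0.707 to 2.00 in the KO libraries, and Col1a1 at 5.09 to 7.52 and 0.813 to 3.54. Pdgfrb was at 12.9 to 17.8 and 4.68 to 10.6 CPM. The part of these markers in the values above was not tested.

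The genes whose log2 CPM followed that of Peg3 most closely over the 12 libraries of the Myc experiment were Tpd52, Cmas, Med7, Elfn2 and Plcl1. Their Pearson correlations were 0.984, 0.981, 0.980, 0.980 and 0.978 among 11855 genes with a mean of at least 1 CPM. The libraries of a group are not independent points, and WT and KO form separate clusters, so no p is given. Plcl1, which encodes a phospholipase-like protein, was at 17.5 and 18.8 CPM in WT Ctrl, 2.54 and 2.90 in WT Myc and at most 0.233 in the KO libraries. Elfn2 was at 12.3 and 13.2 CPM in WT Ctrl, 5.85 and 6.09 in WT Myc and at most 0.756 in the KO libraries. Tpd52 fell less far, from 245 and 248 CPM in WT Ctrl to 92.4 to 124 in the 8 KO libraries. Of the other members, Sgce had a correlation of 0.778 with Peg3, Igf2r of 0.654 and Impact of -0.459.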

How the data were processed

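RNA-seq libraries of p19/Nras cells (12 in the Myc experiment, 8 in the HU experiment) were used as the authors deposited them, as whole-number counts of reads per gene. The authors mapped reads with STAR (version 2.5.4) to mm9, and the submitters' processing notes also name edgeR (version 3.26.8). The counting tool and annotation are not given in the sources used here. The counts of the Myc experiment were deposited under a name that calls them normalized. They are whole numbers with unequal library totals and were taken as raw counts, which was not tested. Tables of the authors' own tests (log2 fold changes, log2 CPM, F score, p-values) were deposited too and not used. In the HU experiment 71.9% of counts from 1 to 50 were even, against 48.4% in the Myc experiment. Counts divided by 2 were an alternative there.

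Each experiment was fitted alone with edgeR 4.0.16 (R 4.3.3) with TMM scaling, a coefficient for each group and a quasi-likelihood F test, adjusted by Benjamini-Hochberg over all genes. The limit was 0.01 for KO against WT and Myc, and 0.05 for HU. The low-count filter removed 0 genes. SE are the log2FC over the square root of F, and 95% intervals follow from them. Ratios of genes with a group at 3 or fewer counts per library carry exact binomial counting intervals, and 0 counts were set to a floor of 3 over the group. The procedure was tested on simulated data.

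The members, lists, tests and alternatives were chosen with earlier results of these data known. Genes named by rule are the members, listed genes of the Peg3 domain, maintenance factors called alike in both KO lines, and the 5 genes most like Peg3. Zfp57, Tet3, Gatm, Gnas and the neighbours of Peg3 and Sgce were named outside this rule. Zfp57 and the neighbours were named after their values were seen. Of the imprinted list, the 3 largest rises and falls among called genes with a mean of at least 1 CPM were named. For Myc against Ctrl within KO lines and the differences of Myc effects, that list is not named, since the labels of these libraries are in doubt. Coordinates are from GENCODE vM1, promoters from RefSeq on GRCm38.p6. Alternatives were the compared groups alone, a replicate block, DESeq2 1.42.0 and its size factors, a mean of at least 5 CPM, no filter, and leaving out each library.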

Additional observations from a re-analysis of the deposited data

Results flagged for a closer look

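The effect of Myc on Impact differed between KO1 and WT, as labelled, by 0.56 on the log2 scale (edgeR's quasi-likelihood test, adjusted p of 0.000825), with higher CPM in 2 of 2 libraries labelled KO1 Myc than in 2 of 2 of WT Myc. The effect of Myc on Sgce differed between KO2 and WT, as labelled (adjusted p of 1.26e-06), and no size is given because the libraries labelled KO2 Myc hold 0 counts. Both differences were flagged because an interaction passed. Both rest on the line labels of the Myc libraries, and whether these are exchanged cannot be told, as described above. Were these line labels exchanged, Sgce would be at 1 count in KO1 Ctrl and 0 in KO1 with Myc, and at 134 and 81 counts in KO2, so that the difference for KO2 as labelled may not exist. No difference is given for Sgce in KO1, whose KO1 Ctrl value was part of the choice of the genes. The WT Ctrl and KO2 Ctrl values of Sgce were part of it too, so the p given for KO2 is not independent of the choice. The p given for Impact has the same limit, since it uses WT Ctrl and KO1 Ctrl. With 2 libraries in each group, no sample could be tested for standing apart from its group.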

How the results depend on the processing

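Replicate numbers did not pair the libraries: the deviations of same-numbered libraries correlated at -0.148 to 0.192 over 15 pairs of groups in the Myc experiment and at -0.0136 to 0.051 over 6 in the HU experiment. Under the replicate block, Igf2r passed in WT Myc against WT Ctrl (log2FC -0.29, adjusted p of 0.00954), as it did in DESeq2 (0.00934), and Igf2r in KO1 Myc against KO1 Ctrl turned to -3.959e-05. There it was -0.004027 with DESeq2 size factors and -0.003743 in DESeq2.

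The count of members called was 0 in KO2 Ctrl against KO1 Ctrl at a mean of at least 5 CPM, which leaves out Sgce and Mest, and 1 in KO1 Myc against WT Myc, 1 in KO2 Myc against WT Myc, 0 in KO1 Myc against KO1 Ctrl and 1 in KO2 Myc against KO2 Ctrl. For the Myc effects it was 1 in KO1 and 0 in KO2 at that filter. With only the compared groups it was 1 in KO1 Myc and 1 in KO2 Myc against WT Myc, and 2 in KO1 Myc against KO1 Ctrl. In DESeq2 it was 1 and 2 for KO1 Myc against WT Myc and against KO1 Ctrl. The counts for KO1 Myc against KO1 Ctrl and for the Myc effect in KO1 include Sgce or Peg3, whose KO1 Ctrl values were part of the choice of the genes, and nothing is read from them. Nor is anything read from counts that rest on KO2 Ctrl, where the values of Sgce were part of that choice.

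Leaving out 1 library each gave 2 to 3 members in KO1 Ctrl against WT Ctrl, 1 to 3 in KO2 Ctrl against WT Ctrl, 1 to 2 in KO1 Myc and 1 to 2 in KO2 Myc against WT Myc, 1 to 2 in KO1 Myc against KO1 Ctrl, 1 to 2 in KO2 Myc against KO2 Ctrl, 1 to 2 for the Myc effect in KO2 and 0 to 1 in WT HU against WT untreated. Directions of values that did not pass turned for Igf2r, with ranges of -0.284 to 0.03768 in KO1 Myc and -0.1445 to 0.1772 in KO2 Myc against WT Myc, -0.1144 to 0.1313 in KO1 Myc against KO1 Ctrl, -0.00596 to 0.156 in KO2 Myc against KO2 Ctrl, -0.332 to 0.1885 in KO against WT untreated, -0.1626 to 0.01538 with HU and -0.2503 to 0.2703 for the HU effects. They turned for Impact, with -0.1428 to 0.08736 for the Myc effect in KO2 and -0.2215 to 0.08661 in KO against WT untreated. The cause was not tested.

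Of the 5 genes most like Peg3, 0 were among the 5 by Spearman's rho. With only the compared groups, 4029 genes passed in KO2 Ctrl against KO1 Ctrl against 2398 with all groups, 1541 against 3291 in KO1 Myc against WT Myc, 2775 against 4614 in KO2 Myc against WT Myc and 1097 against 677 in KO HU against WT HU. DESeq2 called 396, 402, 727 and 456 genes for KO against WT untreated and with HU and for HU in WT and KO, against 626, 677, 1102 and 723.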
